A study of Mus musculus with 6 samples.

Results

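Capn6 and 8 further genes of the calpain system were followed in mouse embryonic precursors with and without HOXB4. The members were Capn6, the proteases Capn1, Capn2, Capn5, Capn7, Capn10 and Capn15, the regulatory subunit Capns1 and the inhibitor Cast. All 9 were found among the 30702 genes of the array, each with 1 feature that names that gene alone. Capn6 was chosen by its difference between control and HOXB4 arrays, which had the smallest unadjusted p among all genes lower in HOXB4 cells. Its difference is therefore a description and carries no test. The other members were taken as its relatives, with results of these arrays already known, and are described in the same way.

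The cells came from mouse embryonic stem cells of a line called iRunx, grown into embryoid bodies, clusters of differentiating cells that model the early embryo. At day 4 single cells that carried Flk1 but not PDGFRα on their surface were sorted; precursors of blood and endothelium lie in this fraction. All 6 samples were iRunx cells of day 4. The 3 HOXB4 samples expressed HOXB4, a homeodomain transcription factor, carried by a tdTomato-marked retrovirus, whereas the 3 control samples lacked that expression. The labels leave unsaid whether controls carried an empty vector and whether a Runx gene was induced in either group. Each sample had 1 array, and the labels describe 3 independent experiments. Values are the authors' log2 RMA summaries, 1 per gene and array. As a guide to scale, the arrays' median genes ranged from 5.10 to 5.22 and the medians of their background features from 3.06 to 3.15. The highest gene reached 19.85 to 19.89, above the range of common array scanners, and what rescaling lies behind this is unstated, so folds and percentages hold on the deposited scale alone. Kdr, which encodes Flk1, lay between 13.7 and 14.3, and the feature for Pdgfra also names another gene and was not used here.

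Calpains are calcium-dependent cysteine proteases of the cytosol that cut their targets at few sites and so alter them rather than degrade them. The classical enzymes pair a large catalytic subunit, from Capn1 or Capn2, with the small subunit from Capns1, and calpastatin, from Cast, inhibits them. They act on the cytoskeleton and on adhesion sites during cell spreading and migration. Capn6 is an X-linked exception: it lacks the cysteine that the catalytic reaction needs. It is known to stabilise microtubules and to bind GEF-H1, a microtubule-associated exchange factor, and in the mouse it is expressed in placenta and in embryonic muscle.

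The promoter sequences of Capn6, whose values the results turn on, and of Capns1, the subunit shared by the classical enzymes, are shown so that their letters can be compared. RefSeq promoter windows of 300 bases, from 250 before to 50 after a start site (build GRCm38.p6), matched 8 of the 9 members with 14 windows. The Capn6 window, chrX:143827363-143827662 on the minus strand, held 5 CpG dinucleotides. Windows of Capn2, Capn7 and Capn10 held 27, 25 and 21, the 2 of Capn1 held 15 and 14, and those of Capn15 and Cast ranged from 2 to 25. The median of all 32544 windows was 7. In the Capn6 sequence the capitals mark the GC box GGGCGG on either strand, found 3 times there and in 35.9% of all windows. In the Capns1 sequence, chr7:30195104-30195403 on the minus strand, the capitals mark TAAT on either strand, the core that homeodomain proteins bind. It occurred 2 times in this window.
Capn6: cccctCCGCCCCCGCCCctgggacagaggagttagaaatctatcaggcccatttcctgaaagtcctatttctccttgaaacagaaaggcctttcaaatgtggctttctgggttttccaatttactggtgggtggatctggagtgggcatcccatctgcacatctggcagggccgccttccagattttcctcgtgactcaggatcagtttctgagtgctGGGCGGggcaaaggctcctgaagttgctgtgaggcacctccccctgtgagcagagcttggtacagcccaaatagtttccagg
Capns1: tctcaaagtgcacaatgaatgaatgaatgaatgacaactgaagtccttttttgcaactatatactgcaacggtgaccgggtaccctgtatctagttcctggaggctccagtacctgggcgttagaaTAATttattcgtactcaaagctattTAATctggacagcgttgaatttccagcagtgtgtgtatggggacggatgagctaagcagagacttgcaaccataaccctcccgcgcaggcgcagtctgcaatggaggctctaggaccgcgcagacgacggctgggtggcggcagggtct

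TAAT was not among the letters of the Capn6 window, whereas 57.9% of all windows held it. Of the 14 windows of members, 7 held it, and they belonged to Capn1, Capn15, Capns1 and Cast. The longer form TGATTNAT, in which HOX and PBX proteins bind together, occurred in 0 of the 14 windows and in 3.23% of all windows. E-box letters, CANNTG, stood 3 times in the Capn6 window and were present in 72.3% of all windows. A match or its lack describes these windows alone.

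Capn6 was lower in all 3 HOXB4 samples than in any control. Controls 1, 2 and 3 gave 11.15, 11.19 and 11.35, and HOXB4 1, 2 and 3 gave 9.79, 10.21 and 9.61. The controls spanned 0.20 and the HOXB4 samples 0.60, and the groups were separated by 0.94 on the log2 scale. Means were 11.23 ± 0.10 (SD, n = 3) and 9.87 ± 0.31 (SD, n = 3), a log2 difference of -1.36 (SE 0.16), or 2.56-fold, which leaves 39.1% of the control level. In sorted bulk cells, fewer cells that express Capn6 and less Capn6 RNA per cell cannot be told apart.

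Placed among all genes, 32 genes, Capn6 included, had a difference as low as its own or lower, which is 0.104% of them. The lowest control exceeded the highest HOXB4 sample by at least as much in 2 genes, Capn6 and Fgf15, an FGF ligand gene named after its values were seen. Over all 30702 genes, 0% were called by limma at 0.05 after Benjamini-Hochberg adjustment. At an unadjusted p of 0.05 the same fit counted 2513 genes (8.19%), and the linear model without moderation counted 1974 and called 0 after adjustment. Of the 9 members 1 was among the 2513, and it was Capn6, whose choice by its p fixed this. Non-overlapping groups were common: 10.2% of all genes had every HOXB4 value below every control value and 3.24% had every one above, 13.5% in all. Among the 9 members, 1 was lower without overlap, Capn6, whose choice favoured this, and 0 were higher.

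**Figure D1:**
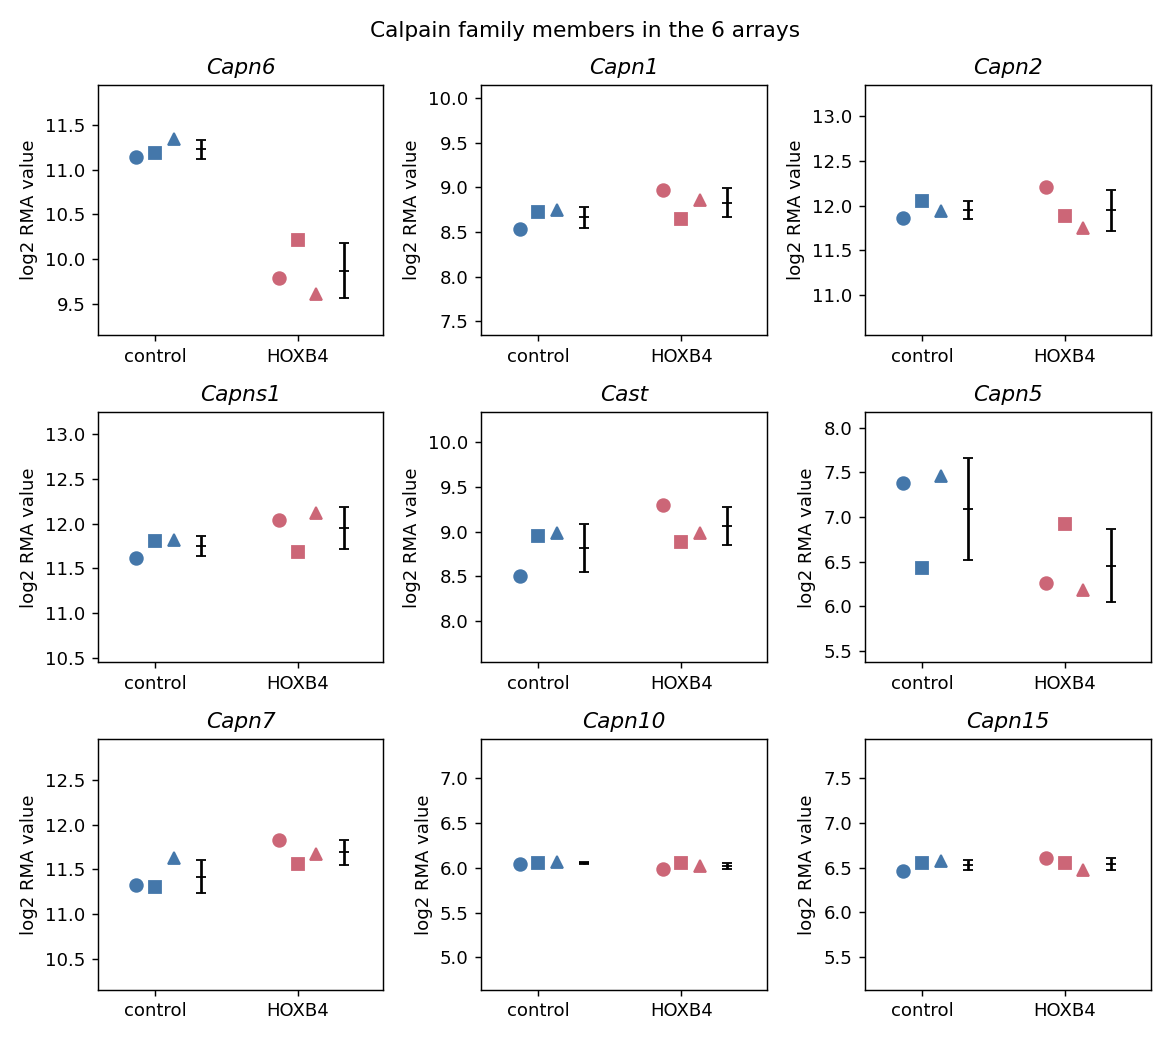
Log2 RMA value (vertical axis, spanning equal heights in every panel) of the 9 members in control (blue) and HOXB4 (red) arrays. Circles, squares and triangles are replicates 1, 2 and 3, and black bars are mean and SD (n = 3). Capn6 separates the groups by 0.94, and in each of the other 8 panels the groups overlap.

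Capn6 held its lower value in HOXB4 2, an array in which many other genes low in HOXB4 1 and 3 stood near the controls. For Capn6 the difference from the control mean was -1.02 in HOXB4 2, -1.43 in HOXB4 1 and -1.62 in HOXB4 3. The shift in HOXB4 2 was thus 66.6% of the mean shift in HOXB4 1 and 3. Without HOXB4 2, 225 genes were lower by at least 1 on the log2 scale, and the median of this share over them was -3.63%, with quartiles of -22.2 and 15.1%. Picking genes by low values in HOXB4 1 and 3 itself favours a low share in HOXB4 2. The median is therefore a description and no neutral measure for Capn6.

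A share as high as that of Capn6 was seen in 6 of the 225 genes, Capn6 included. The others were Tbx4, Snai2, 2010320M18Rik and the small RNA genes Gm24525 and Rnu12, all named after their values were seen. The share was 11.5% for Hand1, a basic helix-loop-helix factor of the early heart, 12.9% for Foxf1, a factor of lateral mesoderm, and -3.49% for the cadherin gene Cdh11. It was higher, at 31.7%, for the cardiac marker Tbx20. Hand2, a further cardiac marker, also stayed low in HOXB4 2, at 6.09 beside a lowest control of 6.33. So did Twist1, a PDGFRα-lineage marker lower by less than 1, at 5.13 beside a lowest control of 5.42. In both genes, as in Capn6, HOXB4 2 lay nearer the mean of HOXB4 1 and 3 than the control mean. The low value in HOXB4 2 was therefore not particular to Capn6 among these markers. A small p over all 6 arrays, for which Capn6 was chosen, favours a high share. The contrast with Hand1, Foxf1, Cdh11 and Tbx20 is therefore given without a test.

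**Figure D2:**
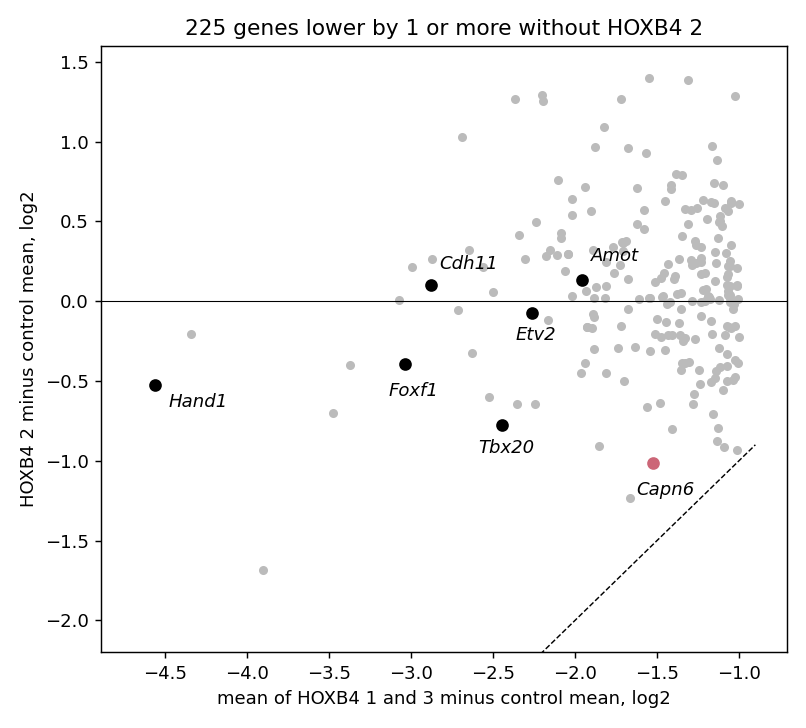
Difference from the control mean in HOXB4 2 (vertical axis, log2) against the mean difference in HOXB4 1 and 3 (horizontal axis, log2) for the 225 genes that were lower by 1 or more without HOXB4 2. The dashed line marks equal differences. Capn6 (red) lies at -1.53 and -1.02, nearer that line than Hand1 or Foxf1.

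Lists of other mesoderm markers had mean levels in HOXB4 1 and 3 below those of every control, and 0 of their genes passed the test over all genes. All 8 cardiac markers had differences below 0, as did 18414 of all 30702 genes, and 2 of the 8, Hand2 and Tbx20, were lower without overlap (10.2% of all genes). The mean level of the list was 7.34 to 7.98 in the controls and 6.07, 7.38 and 6.06 in HOXB4 1 to 3. Of the 8 measured PDGFRα-lineage markers, 6 were below 0 and 2, Foxf1 and Twist1, were lower without overlap (again beside 10.2% of all genes), and the mean level was 6.72 to 6.79 in controls and 5.90, 6.63 and 5.89 in HOXB4 1 to 3. In the mean of each list HOXB4 2 was near the controls, whereas for Capn6 it was not. Single genes of the lists departed from that mean. Twist1 was at 5.42 to 6.23 in controls and at 4.85, 5.13 and 4.99 in HOXB4 1 to 3. Hand2 was at 6.33 to 7.32 in controls and at 5.75, 6.09 and 5.21 in HOXB4 1 to 3. In both genes HOXB4 2 stayed below every control, as in Capn6. Of 8 markers of the sorted fraction 7 were above 0, beside 12288 of all 30702 genes, among them Kdr and Lmo2 at 0.06 each. The largest of the 7 had wide errors, with Pecam1 at 1.17 (SE 1.14) and Fli1 at 1.15 (SE 0.72). In 0 of the 8 were the groups without overlap, beside 13.5% of all genes in either direction. The exception was Etv2, a factor that specifies blood and endothelium, at -1.53 (SE 0.60) with HOXB4 2, at 12.06, among the controls. The list had mean levels of 10.5, 11.5 and 10.4 in controls 1 to 3 and of 11.9, 10.2 and 11.3 in HOXB4 1 to 3. Control 2 was thus above HOXB4 3. The part of these cell types in the Capn6 difference was not tested.

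Markers of embryonic muscle and placenta, tissues known for Capn6 expression, were read in the same arrays. The 5 markers of skeletal myoblasts lay between 3.00 and 4.94 in every array, below the median gene. Of 8 listed trophoblast markers 5 were measured. Hand1, which is a cardiac marker as well, had means of 13.36 in controls and 10.14 in HOXB4 cells, a difference of -3.22 (SE 1.06) that was the lowest of all genes. Elf5, Ascl2, Tpbpa and Krt7 had control means of 4.29, 4.57, 3.91 and 4.87, below the median gene. The part of these tissues in the Capn6 difference was not tested. Stem cell markers, 5 of 5 with differences above 0 beside 12288 of all 30702 genes, had mean levels of 6.44 to 6.84 in controls. In HOXB4 1 to 3 these were 6.49, 7.33 and 7.51. Sox2 differed by only 0.02 (SE 0.23), and Nanog by 0.53 (SE 0.70). Zfp42, at 0.69 (SE 0.23), was higher without overlap, 1 of 5 beside 3.24% of all genes.

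The 4 genes of the classical calpain system had differences between -0.007 and 0.24. Capn1, the catalytic subunit of µ-calpain, stood at 8.53, 8.72 and 8.74 in controls and at 8.97, 8.65 and 8.86 in HOXB4 1 to 3. The groups overlapped through HOXB4 2, which lay below controls 2 and 3. The log2 difference of 0.16 (SE 0.12) was 0.09 without HOXB4 1 or without control 1 and 0.25 without HOXB4 2.

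Capn2, the catalytic subunit of m-calpain, was at 11.86, 12.06 and 11.94 in controls and at 12.20, 11.88 and 11.75 in HOXB4 1 to 3. HOXB4 samples were both the highest and the lowest of the 6, and the difference was -0.007 (SE 0.14). Its sign turned between settings, from -0.14 without HOXB4 1 to 0.09 without HOXB4 3. Relative to Capn2 in the same arrays, Capn6 differed by -1.35, a measure unmoved by a constant added to all log2 values of an array.

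Capns1, the small subunit that both enzymes need, was at 11.62, 11.80 and 11.82 in controls and at 12.04, 11.68 and 12.12 in HOXB4 1 to 3. HOXB4 1 and 3 were above all controls and HOXB4 2 was not, for a difference of 0.20 (SE 0.14) that was 0.34 without HOXB4 2 and 0.12 without HOXB4 3. Cast, whose product calpastatin inhibits the classical enzymes, was at 8.50, 8.95 and 8.98 in controls and at 9.30, 8.89 and 8.99 in HOXB4 1 to 3. Control 1 was the lowest of the 6 arrays, and HOXB4 2 lay between it and control 2. The difference of 0.24 (SE 0.17) became 0.09 without control 1. Relative to the mean of Capn1, Capn2 and Capns1, Cast differed by 0.13 on the log2 scale.

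**Figure D3:**
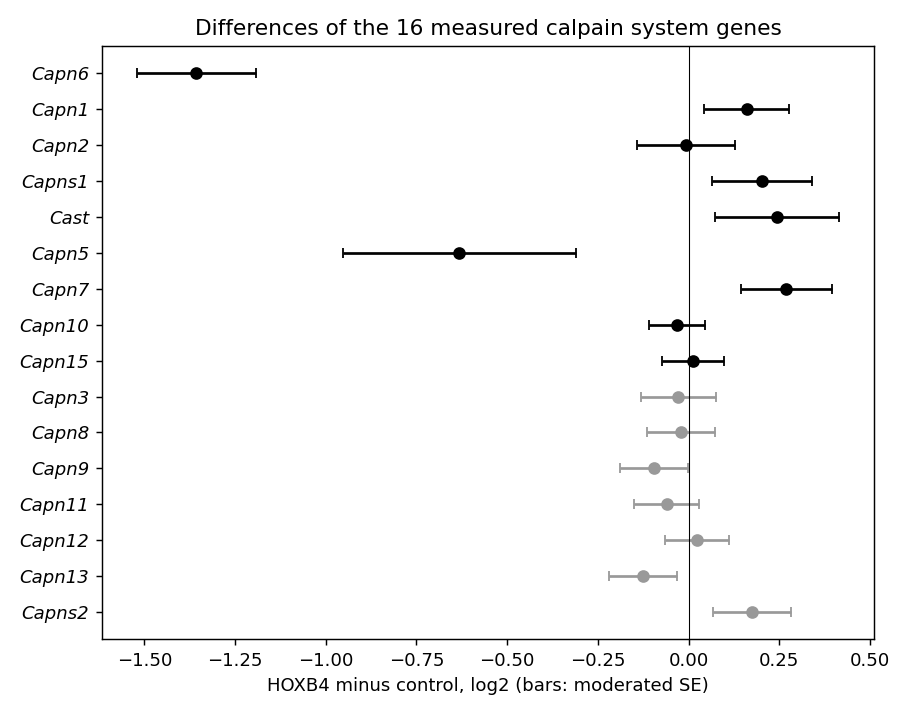
HOXB4 minus control (horizontal axis, log2) for the 9 members (black) and the 7 other calpain genes measured (grey), with bars for the moderated SE. Capn6 stands at -1.36 and Capn5 at -0.63, and the other 14 genes lie between -0.13 and 0.27.

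Among the non-classical calpains, which lack the calcium-binding domain that pairs with Capns1, Capn5 came nearest to Capn6 in direction. Capn5, a relative of the nematode sex determination protease TRA-3, was at 7.38, 6.43 and 7.46 in controls and at 6.26, 6.92 and 6.19 in HOXB4 1 to 3. Control 2 was lower than HOXB4 2, so the groups overlapped. The difference of -0.63 (SE 0.32) was -0.96 without control 2 and -0.45 without control 3. For Capn5 the shift in HOXB4 2 was 19.4% of that in HOXB4 1 and 3.

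Capn7, which binds ESCRT-III proteins of endosomes, leaned the other way. It was at 11.33, 11.31 and 11.63 in controls and at 11.83, 11.56 and 11.67 in HOXB4 1 to 3, a difference of 0.27 (SE 0.13). Control 3 exceeded HOXB4 2, and every other control lay below all HOXB4 samples. Capn10, a gene studied for its link with type 2 diabetes in humans, stayed between 5.99 and 6.06 in all arrays and differed by -0.03 (SE 0.08), or by -0.05 to -0.01 with 1 array left out. Capn15, the homologue of Drosophila small optic lobes, lay between 6.47 and 6.60 and differed by 0.01 (SE 0.09), with a sign that turned between settings. For both of these genes the groups overlapped.

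With HOXB4 2 left out, a choice made after the data were seen, 7 of the 9 members had groups that did not overlap. Capn6, Capn5 and Capn10 were then lower, against 21.4% of all genes, and Capn1, Capn7, Capns1 and Cast were higher, against 10.5% of all genes. For Capn10 the gap was narrow, with HOXB4 1 and 3 at 5.99 and 6.02 and controls from 6.05 to 6.06. Its difference was then -0.05 (SE 0.10). The median difference of the 8 members other than Capn6 over all 6 arrays was 0.09, beside -0.04 for all genes. Against the mean of these 8 in the same arrays, Capn6 differed by -1.38. None of the 8 had a limma adjusted p below 0.05 in any of the 14 alternative settings.

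The remaining calpain genes, most of them known from single tissues, gave low values throughout. Of 8 listed, 7 were measured, and their values ran from 3.18 to 5.08, each below the median gene of its array. They were Capn3 of skeletal muscle, Capn8 and Capn9 of the stomach, Capn11 of the testis, Capn12 of the hair follicle, Capn13, and Capns2, a further small subunit. Their differences ran from -0.13 to 0.17 with a median of -0.03. Capn13 alone of the 7 was lower without overlap, beside 10.2% of all genes, by a gap of 0.004 at values from 3.18 to 3.48, close to the background medians.

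Known targets of calpains were examined next. Of 25 listed, 19 were measured, and 0 passed the test over all genes. Differences were above 0 in 13, beside 12288 of all 30702 genes, with a median of 0.12 beside -0.04 for all genes. The other 6 were below 0, among them Actn1 at -0.30 (SE 0.24) and Ezr at -0.23 (SE 0.35). Sptan1, α-spectrin and a standard readout of calpain cleavage, was at 12.41, 12.76 and 12.89 in controls and at 13.19, 12.997 and 13.14 in HOXB4 1 to 3. All HOXB4 samples exceeded all controls, by 0.42 (SE 0.14) between means. Vcl, the adhesion site protein vinculin, also did not overlap, with control 3 at 13.997 just under HOXB4 3 at 14.014 and a difference of 0.62 (SE 0.23). Together these were 2 of 19 targets higher without overlap and 0 lower, beside 3.24 and 10.2% of all genes. The β-spectrin gene Sptbn1 differed by 0.63 (SE 0.26) and the integrin gene Itgb1 by 0.48 (SE 0.22), both with overlap through HOXB4 2. These are RNA levels and do not show cleavage.

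Genes tied to the microtubule role of Capn6 showed no common direction. Of 19 measured, 8 were above 0 and 11 below, with a median of -0.006 and 0 passing. Arhgef2, which encodes GEF-H1, ran from 7.11 to 7.35 over the arrays and differed by -0.01 (SE 0.10), and Rac1 by -0.09 (SE 0.09). Map1a, a microtubule-associated protein, was at 5.22 to 5.27 in controls and at 4.999 to 5.12 in HOXB4 cells, a difference of -0.19 (SE 0.08). It and Mapre1, the plus-end protein EB1, were lower without overlap, 2 of 19 beside 10.2% of all genes. Hdac6, a tubulin deacetylase, differed by 0.68 (SE 0.31), Map1b by 0.64 (SE 0.33) and Kif2a, a depolymerising kinesin, by 0.38 (SE 0.18), all with overlap.

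Other intracellular proteases were set beside the calpains. Of 11 lysosomal proteases, all but the serine protease gene Ctsa of the cysteine class, 6 were above 0 and 0 passed, with a median of 0.12. Of all 30702 genes 12288 were above 0. The cathepsin gene Ctsl was at 12.59, 13.02 and 13.41 in controls and at 13.99, 13.27 and 14.04 in HOXB4 1 to 3, a difference of 0.76 (SE 0.27) with overlap through HOXB4 2. Ctsb and Ctsa differed by 0.50 (SE 0.22) and 0.28 (SE 0.23), and Ctsh by -0.42 (SE 0.19). Of 7 measured cystatin and serpin genes, 6 were below 0, beside 18414 of all 30702 genes. The collagen chaperone gene Serpinh1, at -0.34 (SE 0.14), was lower without overlap, 1 of 7 beside 10.2% of all genes. Cst3, cystatin C, differed by -0.49 (SE 0.27), and Serpinb9, a granzyme inhibitor, by -1.27 (SE 0.71) with HOXB4 2 at 8.10 among the controls. The 8 measured caspases had 4 differences above 0 and 4 below, with Casp12 at -0.20 (SE 0.10) and Casp2 at 0.22 (SE 0.19). Casp12 was lower without overlap, 1 of 8 beside 10.2% of all genes.

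Genes of embryonic muscle, a site of Capn6 expression, were mostly dim: 10 of the 16 measured lay below the median gene, and 0 passed. Their median difference was -0.10, with 11 below 0, beside 18414 of all 30702 genes. Myf5, at 3.83 and 4.13 in controls and HOXB4 cells on average, differed by 0.30 (SE 0.10) and Eya1 by 0.57 (SE 0.21). These were the 2 of 16 that were higher without overlap, beside 3.24% of all genes, Eya1 by a gap of 0.002. Myod1 and Pax7 differed by -0.13 (SE 0.08) and -0.18 (SE 0.10), at control means of 3.83 and 4.87. Of the 16, 1, Myod1, was lower without overlap, beside 10.2% of all genes.

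The immediate neighbours of Capn6 on the X chromosome had differences near 0. Pak3 and Dcx, the protein-coding genes on its 2 sides, a kinase and a microtubule-binding protein of neurons, differed by -0.02 (SE 0.11) and -0.13 (SE 0.12). Their highest values, 5.03 and 4.37, were below the median gene. Alg13, an enzyme of N-glycosylation 3 genes away, was at 10.5 to 11.2 and differed by -0.04 (SE 0.21). Of the 20 nearest protein-coding genes, 10 to a side, 0 had groups without overlap, beside 13.5% of all genes in either direction. Several of the 20 were dim, such as Irs4, Gucy2f and Htr2c at means of 3.84, 3.90 and 4.06.

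Among these 20 neighbours, Amot, the angiomotin gene of endothelial migration and Hippo signalling, had the lowest difference. It was at 14.86, 14.46 and 14.75 in controls and at 12.56, 14.82 and 12.91 in HOXB4 1 to 3, so HOXB4 2 lay within the controls, for a difference of -1.26 (SE 0.55). Ammecr1, 4 genes away on the other side, differed by -0.56 (SE 0.26) and Nxt2 by 0.67 (SE 0.23). Of the 18 neighbourhood genes listed, 14 were below 0, beside 18414 of all 30702 genes, and 0 passed. Of these 18, 1, the collagen gene Col4a5, was lower without overlap by a gap of 0.002 (10.2% of all genes were).

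**Figure D4:**
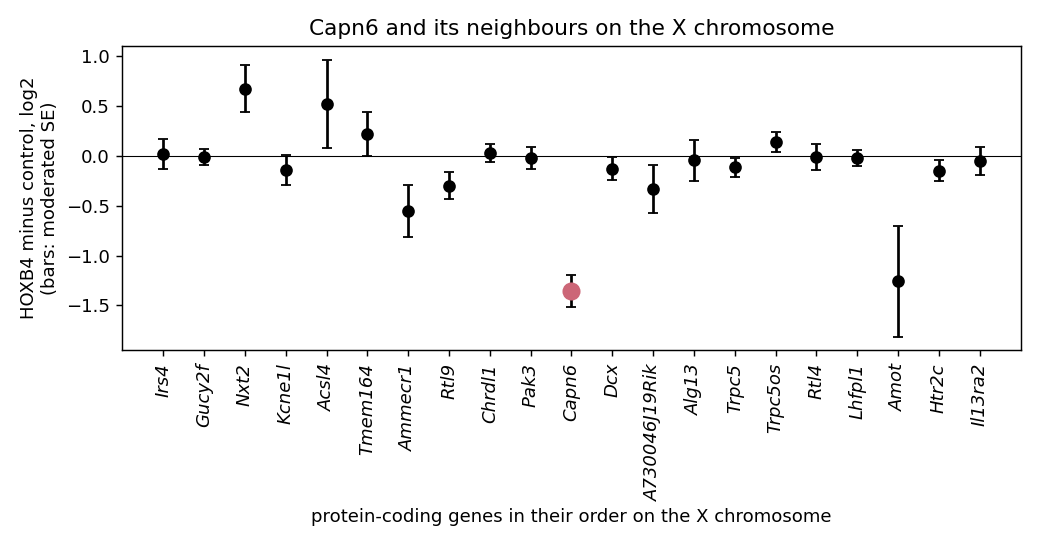
HOXB4 minus control (vertical axis, log2, bars for the moderated SE) of Capn6 (red) and the 10 nearest protein-coding genes on each side, in RefSeq order along the X chromosome (horizontal axis, not to scale). Capn6 at -1.36 lies between Pak3 and Dcx, which are near 0, and Amot at -1.26 has the widest bar.

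Genes most like Capn6 across the arrays had far smaller differences than Capn6. Likeness was Pearson's r over 6 arrays, among the 15350 other genes with a mean at or above that of the median gene. The 6 arrays form 2 groups, so r mainly reflects the group difference, and with so few points it is a description. The 8 highest were Cblb, a ubiquitin ligase (0.997), the mitochondrial ribosomal protein gene Mrpl3 (0.995), the RNA-binding protein gene Rbm15 (0.994), Gm2223 (0.994), Atp5l-ps1 (0.994), Wdr18 (0.990), the mitochondrial kinase gene Dguok (0.990) and Haus1, an augmin subunit (0.990). Their log2 differences ran from -0.39 for Rbm15 to -0.16 for Mrpl3, against -1.36 for Capn6.

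Each of these 8 genes had HOXB4 2 as the highest of the HOXB4 values, which their choice by r with Capn6 over the same arrays made likely. Cblb was at 9.12, 9.12 and 9.16 in controls and at 8.81, 8.93 and 8.75 in HOXB4 1 to 3. The 4 lowest r belonged to Tex2 (-0.983), Syngr1 (-0.982), Mir3472 (-0.973) and Gm26365 (-0.971). Of the other members, Capn10 and Capn5 had r of 0.74 and 0.73, and Capn7, Capns1 and Capn1 had -0.71, -0.71 and -0.66.

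**Figure D5:**
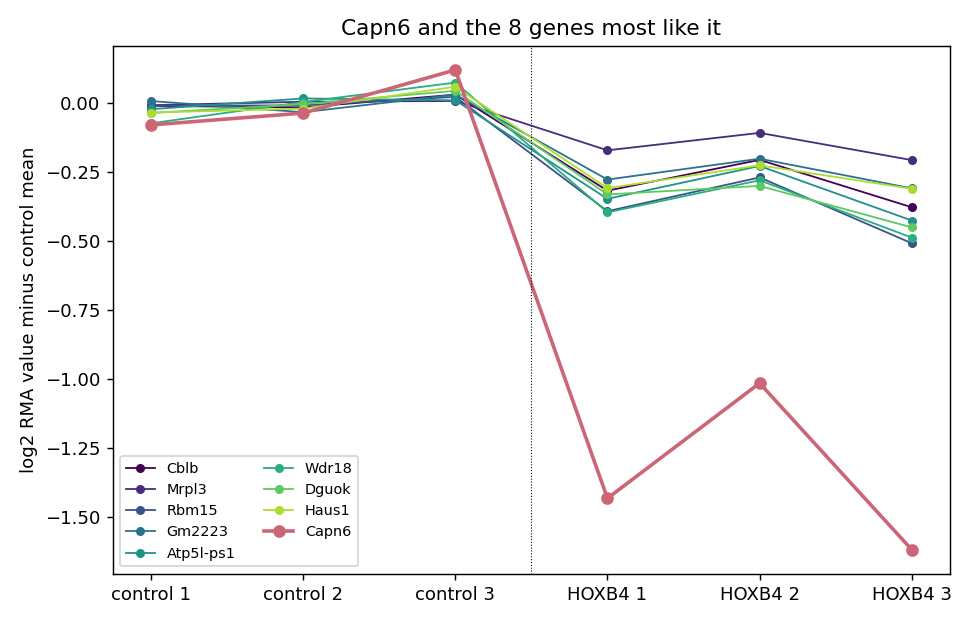
Log2 RMA value minus the control mean (vertical axis) in the 6 arrays (horizontal axis) for Capn6 (red) and the 8 genes most like it by Pearson's r, with lines that join the arrays of a gene only to guide the eye. Capn6 reaches -1.62 in HOXB4 3, and the mean differences of the other genes lie between -0.39 and -0.16.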

How the data were processed

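The authors deposited log2 expression values, 1 array per sample. Tools named per the submitters' processing notes are RMA, which removes background, equalises arrays by quantiles and condenses probes into 1 value, and Affymetrix Expression Console. Their versions and settings: not given in the sources used here. Per the labels' protocols, 100 ng of RNA was labelled with the WT PLUS kit. Because arrays are equalised, a shift shared by most genes would be partly removed.

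Of 65956 features that are not controls, 31258 named 1 gene after symbols were updated through RefSeq (GRCm38.p6), 1492 several and 33206 none listed. The brightest feature stood for each of 30702 genes. HOXB4 minus control was fitted over all genes by the linear models of limma 3.58.1 under R 4.3.3, with moderated SE, two-sided p, Benjamini-Hochberg adjustment and no block, and this step was tested on simulated data. Tables were made in Python 3.11.15 with pandas 2.3.3 and plots with matplotlib 3.10.9. Groups came from sample titles. The members, gene lists, tests and the naming rule (all members, other calpain genes, the 4 smallest p of each list, and the 8 most and 4 least like Capn6) were chosen with earlier results of these data known. Further genes were named outside this rule, such as Arhgef2, Rac1, Mapre1, Kdr, Lmo2, Sox2, Actn1, Ezr and several X chromosome neighbours. The precision is limited by the number of arrays. Alternatives were a replicate block, other priors, weights, filters, scalings and feature rules, and each array left out.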

Additional observations from a re-analysis of the deposited data

How the results depend on the processing

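The count of 0 genes past the adjusted threshold held in 13 of 14 alternatives. Leaving out each array in turn gave 0 to 46 genes, the 46 without HOXB4 replicate 2, Capn6 among them, as its choice on the same values favoured. The members lower without overlap numbered 1, beside 10.2% of all genes, and 3 without HOXB4 replicate 2, beside 21.4%. Those higher numbered 0, beside 3.24% of all genes, and 4 without that array, beside 10.5%. The Capn6 difference ran from -1.53 to -1.22 over all alternatives, and from -1.43 with array weights to -1.30 with cyclic loess among those that kept every array. Capn2 and Capn15 changed sign in 5 and 3 of 14, and the other members in 0. With the replicate block, limma called 0 genes and counted 1294 at an unadjusted p of 0.05, and Capn6 differed by -1.36 (SE 0.18). Deviations from the group means correlated at -0.594 to -0.347 between same-numbered arrays and at -0.085 to 0.427 between the others. With 3 arrays per group these values cannot show whether equal numbers mark a shared experiment, which the labels leave unsaid. Over all features tested, 3061 of 5978 features at an unadjusted p of 0.05 were higher, against 685 of 2513 genes in the fit over genes, 747 of 2471 with arrays centred on their medians and 866 of 2464 with cyclic loess.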
